A study of Mus musculus with 22 samples.

Results

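The regions described here are the gene deserts of the mouse autosomes, taken as 100 kb bins with no protein-coding gene inside and none within 500 kb on either side (GENCODE M21 annotation, mm10). A bin was kept only where its 5-methylcytosine (5mC) level was above 0 and below 1 in all 7 libraries. In all, 1789 of the 25664 bins kept on chromosomes 1 to 19 and X met the rule. By position alone 2302 autosomal bins were deserts, and the 513 left out were all listed at 0 in all 7 libraries and consisted wholly of undetermined bases. The 22222 other autosomal bins served as the comparison, of which 15549 overlapped a protein-coding gene and 6673 did not but lay within 500 kb of one. The rule used the annotation and not the size of the 5mC level.

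The tissues were cortex, olfactory bulb and cerebellum of C57BL/6 mice 8 weeks of age, female according to the methods, with no treatment and no altered gene. oxBS-seq, which oxidizes 5hmC before bisulfite treatment so that only 5mC still reads as cytosine, covered 3 cortex, 2 olfactory bulb and 2 cerebellum libraries. TAB-seq, which reads 5-hydroxymethylcytosine (5hmC) alone, covered 3 libraries per tissue and was deposited in 1 Mb bins. Replicates of a tissue came from independent mice, while whether tissues or assays shared a mouse is not stated in the sources used here. Whole tissues were used, so a change in a cell type's share and a change within cells cannot be told apart, and no expression marker was available in these files to check the tissue labels. The files used here give no coverage per bin, so the depth behind a single level is unknown.

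Most 5mC in mammals sits at CpG sites, which are dense at many promoters, where they are often unmethylated, and sparse and largely methylated in the rest of the genome. TET enzymes oxidize 5mC to 5hmC, a mark that is abundant in neurons and richest in transcribed gene bodies. Gene deserts are long intergenic stretches, many beside developmental regulators, whose distant enhancers can lie inside them.

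The deserts were sparse in CpG sites and rich in repeats. The median desert bin held 478 CpG sites (range 315 to 1237), against 816 in other autosomal bins, with 37.1% G+C against 41.8% and 42.8% repeat-masked bases against 30.8%. A CpG-dense window (500 bp, at least 55% G+C and an observed-to-expected CpG ratio of at least 0.6) lay in 24.1% of desert bins and in 51.6% of the others. The bins formed 205 runs of adjacent bins with a median of 6 bins. The 69 runs of at least 10 bins held 1260 of the 1789 bins, and 31 bins stood alone. By count, without regard to chromosome length, desert bins were most numerous on chromosome 1, with 194, and fewest on chromosome 19, with 11. They were not free of annotated genes: 846 bins (47.3%) held a gene of a type other than protein-coding, called non-coding here, antigen receptor V segments included. Among these genes were 536 processed pseudogenes, 220 long intergenic non-coding RNA genes and 68 miRNA genes, and whether they are transcribed was not examined. Because the annotation gives V segments of antigen receptors their own gene types, 42 desert bins lay in such loci: 14 in the immunoglobulin heavy locus, 21 in the kappa locus and 7 in the T cell receptor alpha locus. Only 3 desert bins had no gene of any type within 500 kb.

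The sequence of these bins is shown by the 200-base stretch, free of masked repeats, that held the most CpG sites in each of 6 bins named below for their level or their tissue difference, with rises and falls ranked by the difference in fraction (GRCm38, RefSeq assembly, plus strand, CG in capitals). The tables give 1 level per bin and do not resolve these stretches.
Immunoglobulin heavy V segments, lowest 5mC, chr12:115132954-115133153: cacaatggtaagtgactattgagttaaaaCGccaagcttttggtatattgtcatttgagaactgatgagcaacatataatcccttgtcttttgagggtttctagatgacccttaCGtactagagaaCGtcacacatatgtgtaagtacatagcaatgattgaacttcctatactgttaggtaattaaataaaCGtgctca
Hace1 to Grik2, highest 5mC, chr10:47646838-47647037: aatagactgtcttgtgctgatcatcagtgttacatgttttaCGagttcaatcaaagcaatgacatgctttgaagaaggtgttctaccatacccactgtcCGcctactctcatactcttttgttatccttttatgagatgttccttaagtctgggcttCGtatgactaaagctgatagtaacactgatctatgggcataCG
Dpp10 to Actr3, largest rise from cortex to olfactory bulb, chr1:124704436-124704635: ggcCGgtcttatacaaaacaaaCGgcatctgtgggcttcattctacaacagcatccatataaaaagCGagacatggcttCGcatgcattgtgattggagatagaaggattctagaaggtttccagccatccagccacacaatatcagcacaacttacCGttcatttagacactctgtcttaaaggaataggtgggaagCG
Tenm3 to Aga, largest fall from cortex to olfactory bulb, chr8:49444726-49444925: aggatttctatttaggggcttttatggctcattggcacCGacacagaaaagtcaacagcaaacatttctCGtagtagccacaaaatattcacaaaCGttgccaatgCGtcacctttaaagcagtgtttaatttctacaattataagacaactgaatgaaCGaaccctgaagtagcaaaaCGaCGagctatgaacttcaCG
Cetn3 to Mef2c, largest rise from cortex to cerebellum, chr13:82912930-82913129: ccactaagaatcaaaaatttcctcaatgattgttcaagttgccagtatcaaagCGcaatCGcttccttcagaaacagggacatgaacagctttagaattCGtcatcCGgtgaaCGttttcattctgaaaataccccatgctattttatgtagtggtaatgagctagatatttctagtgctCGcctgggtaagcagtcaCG
5730507C01Rik to Gm21863, largest fall from olfactory bulb to cerebellum, chr12:19387925-19388124: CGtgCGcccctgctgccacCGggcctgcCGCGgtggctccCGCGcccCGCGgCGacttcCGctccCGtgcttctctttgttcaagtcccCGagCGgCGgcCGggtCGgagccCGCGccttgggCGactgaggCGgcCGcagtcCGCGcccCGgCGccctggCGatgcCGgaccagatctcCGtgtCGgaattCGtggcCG
The first stretch held 4 CpG sites, where the mean of its bin was 0.896 per 200 bases, and the last held 32, against a mean of 1.79. In the Mef2c and Dpp10 bins the densest unmasked stretch held 7 and 6 sites.

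5mC was high and even in the deserts, and its order was cerebellum, olfactory bulb, cortex. The mean over the 1789 bins was 0.752, 0.748 and 0.727 in the cortex libraries, 0.777 and 0.780 in olfactory bulb, and 0.814 and 0.799 in cerebellum. No tissue's libraries overlapped with another's. The tissue means were 0.742 ± 0.0139 (SD, n = 3), 0.779 ± 0.00229 (n = 2) and 0.806 ± 0.0110 (n = 2). The difference was 0.0362 between olfactory bulb and cortex (two-sided exact permutation test, p = 0.1), 0.0640 between cerebellum and cortex (exact p = 0.1) and 0.0278 between cerebellum and olfactory bulb (exact p = 0.33). These were the smallest p-values the numbers of libraries allow, so no pair could pass 0.05. The third cortex library was lower than the others of its tissue by more than the olfactory bulb libraries differed from each other, in deserts (0.727) and in all other autosomal bins (0.651 against 0.676 and 0.679) alike.

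In each library the deserts exceeded the rest of the autosomes. Other autosomal bins averaged 0.669 ± 0.0148, 0.699 ± 0.00338 and 0.726 ± 0.0115 (cortex, olfactory bulb, cerebellum). The gap was 0.0769, 0.0697 and 0.0751 in the cortex libraries, 0.0756 and 0.0836 in olfactory bulb, and 0.0796 and 0.0803 in cerebellum. Its mean was 0.0773 ± 0.00447 (SD, n = 7, higher in 7 of 7, two-sided exact sign-flip permutation test over libraries, p = 0.0156, the smallest possible). Against bins that overlapped a gene the gap averaged 0.0969 for cortex, 0.103 for olfactory bulb and 0.103 for cerebellum, and against gene-free bins within 500 kb of a gene it was 0.0202, 0.0252 and 0.0253. Compared within 10 classes of equal size by CpG count, the gap to all other autosomal bins was 0.0255, 0.0259 and 0.0289. Between tissues the gap differed by 0.00571 (olfactory bulb minus cortex, exact p = 0.4), 0.00606 (cerebellum minus cortex, p = 0.2) and 0.000350 (cerebellum minus olfactory bulb, p = 1), and each of these exact permutation tests missed the threshold. The first ran from 0.00169 without the second olfactory bulb library to 0.00972 without the first and was 0.000351 within the CpG classes, and the cerebellum minus cortex difference was 0.000200 with medians over bins, 0.00336 with a 1 Mb margin, 0.00339 within the CpG classes and 0.00396 without the second cortex library.

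**Figure D1:**
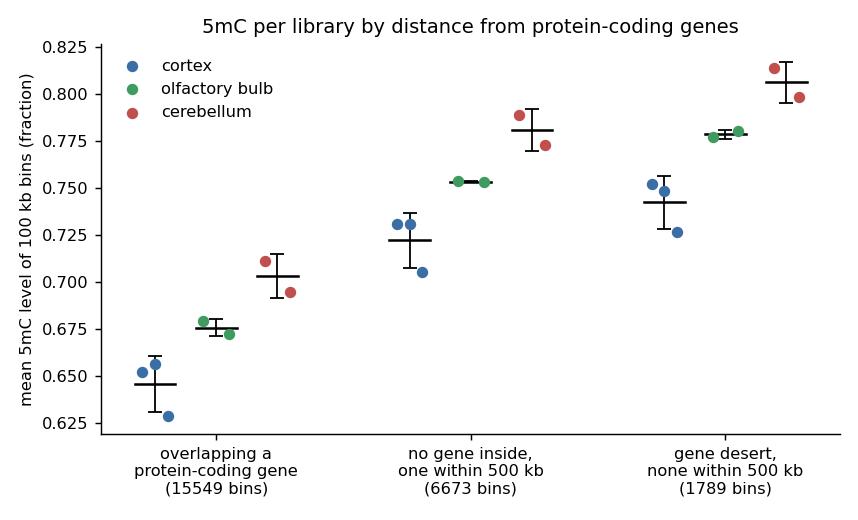
Mean 5mC level (fraction, y axis) of 100 kb bins in 3 classes of bins, with 1 point per oxBS-seq library, horizontal bars for tissue means and error bars for SD (cortex n = 3, olfactory bulb n = 2, cerebellum n = 2). Levels rose from bins overlapping a gene to deserts in every library, and the cerebellum means were the highest in each class.

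5mC climbed with distance from genes and most of the climb came first. In cortex the mean was 0.645 in bins overlapping a gene, 0.715 in gene-free bins within 100 kb of one, 0.731 in the last 100 kb before the 500 kb limit, 0.739 at 500 kb to 1 Mb (1219 bins) and 0.749 at 1 to 2 Mb (550 bins). Olfactory bulb went from 0.676 through 0.745, 0.767 and 0.776 to 0.784, and cerebellum from 0.703 through 0.771, 0.797 and 0.805 to 0.810. Inside the deserts the bins 1 to 2 Mb from a gene exceeded those 500 kb to 1 Mb away by 0.00792 ± 0.00167 (SD, n = 7, higher in 7 of 7 libraries, exact sign-flip permutation p = 0.0156, 0.0234 after adjustment over 6 such comparisons). Only 20 bins lay over 2 Mb from a gene, and they differed from those 500 kb to 1 Mb away by 0.00439 ± 0.00495 (higher in 6 of 7, exact permutation p = 0.0781, adjusted 0.0938). Leaving out the second olfactory bulb library, the only one in which they were lower, gave 0.00597, higher in each library left.

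**Figure D2:**
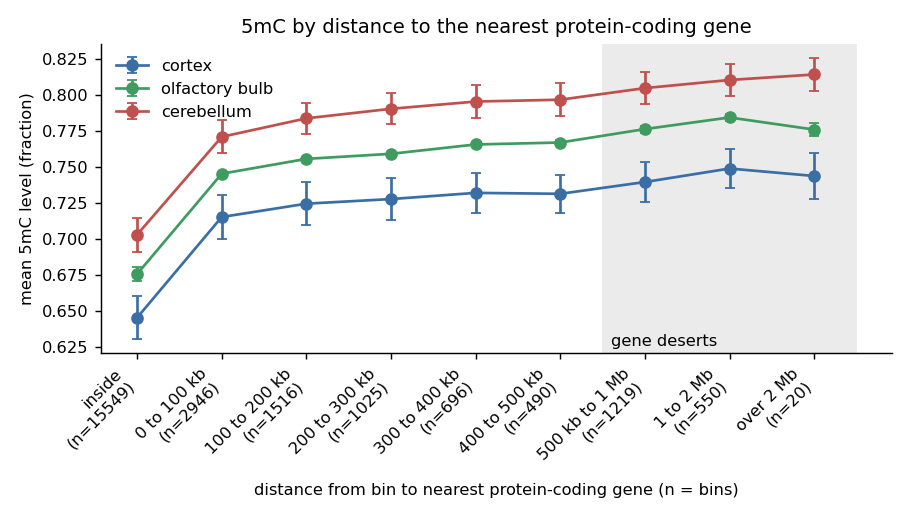
Mean 5mC level (fraction, y axis) by distance from the bin to the nearest protein-coding gene (x axis, with the number of bins), as tissue means with SD over libraries (n = 3, 2 and 2). The grey field marks the deserts, where the 3 lines rise further up to 1 to 2 Mb, and the step next to genes is the steepest, from 0.645 to 0.715 in cortex. Over 2 Mb, with 20 bins, cortex and olfactory bulb are lower than at 1 to 2 Mb.

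The deserts varied less from bin to bin. Within a library the SD over desert bins was 0.0272 to 0.0295, against 0.0416 to 0.0466 over gene-free bins within 500 kb of a gene and 0.0799 to 0.0888 over all other autosomal bins. In the deserts 91.3% to 96.1% of bins lay within 0.05 of their library's mean, and in the gene-free bins nearer to genes 79.5% to 86.4%. The median SD between replicates of a tissue was 0.0145 for desert bins and 0.0165 for the others. Across the 1789 bins the correlation between replicates was 0.772 to 0.923, against 0.949 to 0.983 in other autosomal bins. Between tissues it was 0.758 for cortex with olfactory bulb, 0.492 for cortex with cerebellum and 0.504 for olfactory bulb with cerebellum. Other autosomal bins gave 0.918, 0.835 and 0.817 for these pairs, so both kinds of correlation were lower in deserts. These are descriptions across bins that share libraries and neighbourhood. Levels were shared along the chromosome: bins 100 kb apart correlated at 0.421, 0.503 and 0.647 (cortex, olfactory bulb, cerebellum), and bins 1 Mb apart at 0.262, 0.381 and 0.544. Chromosome means ran from 0.751 on chromosome 7 to 0.785 on chromosome 14.

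Desert 5mC followed repeat content in cortex and olfactory bulb more closely than CpG count. CpG count, which correlated with 5mC at -0.620, -0.622 and -0.632 in other autosomal bins, did so at 0.149, 0.00503 and -0.0677 in deserts. Repeat-masked share, in contrast, correlated with desert 5mC at 0.569 in cortex and 0.558 in olfactory bulb but at 0.155 in cerebellum. Without the antigen receptor bins the cerebellum value was 0.221. In other autosomal bins repeat-masked share gave 0.479, 0.456 and 0.325 (cortex, olfactory bulb, cerebellum), also lowest in cerebellum. Bins with a non-coding gene, antigen receptor V segments included, were lower than those without by 0.00420 ± 0.00314 (SD over 7 libraries, lower in 7 of 7, exact sign-flip permutation p = 0.0156, adjusted 0.0234). By tissue it came to -0.00110 for cortex, -0.00509 for olfactory bulb and -0.00796 for cerebellum, and without the 42 antigen receptor bins it was -0.00280 over the 7 libraries. The kinds of gene differed. Bins with a pseudogene, V-segment pseudogenes of antigen receptors included, averaged 0.746 in cortex and 0.802 in cerebellum. Bins with a long non-coding RNA gene averaged 0.737 and 0.801, and bins with no gene of any type 0.743 and 0.810. Pseudogene bins were thus above gene-free bins in cortex and below them in cerebellum. Immunoglobulin V pseudogenes lay in 34 desert bins and T cell receptor V pseudogenes in 6. In cerebellum the immunoglobulin heavy bins averaged 0.660 and the kappa bins 0.764. The pseudogene contrast was not tested without the antigen receptor bins. The sign-flip test asks only whether the libraries point one way and treats the bins as given.

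Some genes at the edges of the deserts belonged to groups of a list drawn up with earlier results of these data known. The p-values for these groups are therefore no independent support for them. Genes matched by name as neuronal adhesion and guidance genes, such as the cadherins Cdh10 and Cdh12, the protocadherins Pcdh9 and Pcdh17, Robo1 and Tenm3, flanked 763 desert bins (49 genes). The match also took in genes such as Cdh5 and Adgrl4, and whether each gene acts in neurons was not checked. The 763 bins exceeded other deserts by 0.00556 ± 0.00138 (higher in 7 of 7 libraries, exact permutation p = 0.0156, adjusted 0.0234). Developmental transcription factors such as Mef2c, Zeb2 and Sox9 flanked 120 bins (16 genes), which were lower by 0.00454 ± 0.00400 (lower in 7 of 7, same p-values). By tissue, cortex gave -0.00353, olfactory bulb -0.00994 and cerebellum -0.000658. The only chemosensory receptor at an edge was the odorant receptor gene Olfr1507, beside 7 bins that all held T cell receptor alpha V segments (difference -0.00686 ± 0.0148, higher in 3 of 7 libraries, exact permutation p = 0.266).

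Bin by bin, cerebellum differed from cortex in nearly all deserts and the changes were rises. In a limma fit over all 25664 bins on the log2 ratio of methylated to unmethylated fraction, with Benjamini-Hochberg adjustment, 1653 of the 1789 desert bins (92.4%) were higher in cerebellum than in cortex at an adjusted p under 0.05, where 71.9% of all bins tested were called in that direction, and 21 (1.17%) were lower, where 4.44% of all were. Olfactory bulb was higher than cortex in 1007 desert bins (56.3%, background 37.6%) and lower in 5 (0.279%, background 2.18%). Cerebellum was higher than olfactory bulb in 723 (40.4%, background 35.3%) and lower in 36 (2.01%, background 7.69%). With no overlap of libraries as the criterion, 1456 desert bins were higher in olfactory bulb than in cortex and 18 lower, where 61% and 4.04% of all bins were. Likewise 1680 were higher and 21 lower in cerebellum than in cortex (background 76.3% and 5.62%), and 1291 higher and 90 lower in cerebellum than in olfactory bulb (background 58.6% and 16.2%). The median log2 change of desert bins was 0.55, 0.30 and 0.25 in the order cerebellum against cortex, olfactory bulb against cortex and cerebellum against olfactory bulb, where the median over all bins was 0.43, 0.22 and 0.19.

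The counts depended on centring and on the spread. With each library centred on its median over all bins, 674 desert bins (37.7%) were higher and 117 (6.54%) lower in cerebellum than in cortex, where 25.7% and 24.3% of all bins were. Centring gave 157 higher (8.78%) and 53 lower (2.96%) for olfactory bulb against cortex, with a background of 8.81% and 9.9%, and 374 (20.9%) and 143 (7.99%) for cerebellum against olfactory bulb, with a background of 22.1% and 21.3%. Rises made up 85.2%, 74.8% and 72.3% of these calls, against 98.7%, 99.5% and 95.3% without centring. After centring, the share of desert bins called higher in the pairs with olfactory bulb was thus near the background or below it. A smaller share of desert bins than of all bins was called lower in each pair.

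The fit gave nearly one spread to all bins. With each bin's own spread, 1428 rises (79.8%) and 14 falls (0.783%) were called from cortex to cerebellum, with a background of 57.6% and 2.86%. From cortex to olfactory bulb 96 rises (5.37%) and 0 falls were left, near the background of 5.7% for rises and with 0.573% for falls, where an unadjusted p under 0.05 gave 869 and 3 (33.9% and 2.27% of all bins). From olfactory bulb to cerebellum 233 rises (13%) and 8 falls (0.447%) were called, with a background of 15.2% and 3.09%. Counts for the pairs with olfactory bulb rest on single libraries as well: without its first or second library, 321 or 276 rises from cortex were called, and without the first cerebellum library 231 rises from olfactory bulb. Without the second olfactory bulb library no desert bin was called lower than cortex.

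The largest rises of cerebellum over cortex were in bins near Mef2c and between Celf2 and Gata3. The bin chr13:82900001-83000000, just over 500 kb from Mef2c (a transcription factor of neurons and muscle), stood at 0.632, 0.633 and 0.633 in cortex, 0.700 and 0.706 in olfactory bulb and 0.810 and 0.806 in cerebellum. Its 3 tissues did not overlap, and cerebellum exceeded cortex by 0.175 (log2 change 1.29 ± 0.12 SE, limma adjusted p = 3.05e-24, and 0.00327 with the bin's own spread). The bin holds 500 CpG sites and no annotated gene, and its 200-base stretch is printed above. The 6 other bins of that desert, toward Cetn3, lay at 0.698 to 0.741 in cortex, all above this end bin. In chr2:8300001-8400000, between Celf2 (an RNA-binding protein) and Gata3 (a transcription factor), the levels were 0.667, 0.669 and 0.659, then 0.718 and 0.730, then 0.832 and 0.837. The cerebellum excess over cortex was 0.169 (log2 1.34 ± 0.12, limma adjusted p = 4.46e-26).

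The largest rise of olfactory bulb over cortex was in chr1:124700001-124800000 between Dpp10 (a subunit of neuronal potassium channels) and Actr3 (an actin nucleator). Cortex stood at 0.619, 0.612 and 0.597, the lowest cortex mean of all desert bins named here, while olfactory bulb was at 0.754 and 0.741 and cerebellum at 0.789 and 0.760. Olfactory bulb exceeded cortex by 0.138 (log2 0.92 ± 0.12, limma adjusted p = 2.76e-12), cerebellum by 0.166 (adjusted p = 1.43e-19), and the latter tissues differed by 0.0277 (adjusted p = 0.150). The 3 tissues were in the same order in chr1:141800001-141900000, between the potassium channel gene Kcnt2 and Cdc73, with 0.676 to 0.689 in cortex, 0.786 and 0.798 in olfactory bulb and 0.828 and 0.805 in cerebellum. In chr15:70300001-70400000, between Khdrbs3 and Fam135b, cortex was at 0.659 to 0.699 and olfactory bulb at 0.776 and 0.779.

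A different order, with the olfactory bulb mean lowest, marked bins near Tenm3 and Zfp608 and a single bin near Bcl11a. In chr8:49400001-49500000, 556 kb from Tenm3 (a teneurin that guides the matching of synapses), cortex was at 0.715, 0.743 and 0.674, olfactory bulb at 0.656 and 0.627 and cerebellum at 0.798 and 0.784. The difference of olfactory bulb from cortex was -0.0692 (log2 -0.46 ± 0.12, limma adjusted p = 0.000918, but 0.144 with the bin's own spread). In chr18:55600001-55700000, beside Zfp608 (a zinc finger protein), cortex was at 0.670, 0.699 and 0.630, olfactory bulb at 0.602 and 0.593 and cerebellum at 0.793 and 0.765. Cerebellum exceeded olfactory bulb there by 0.182 (log2 1.25 ± 0.13, adjusted p = 3.72e-19, 0.0255 with its own spread), while the fall from cortex had an adjusted p of 0.00199, or 0.148 with its own spread. In chr11:24700001-24800000, 526 kb from Bcl11a (a zinc finger transcription factor of neurons and blood), olfactory bulb was at 0.626 and 0.614, cortex at 0.656, 0.662 and 0.628 and cerebellum at 0.782 and 0.776. Cerebellum exceeded olfactory bulb by 0.159 (log2 1.11 ± 0.13, adjusted p = 1.36e-15), and cortex and olfactory bulb did not pass the test (difference -0.0289, limma adjusted p = 0.198). In the other bins of the Bcl11a desert the olfactory bulb mean was above the cortex mean. The pairs were 0.752 and 0.726, 0.695 and 0.692, and 0.726 and 0.683. All 5 desert bins called lower in olfactory bulb than in cortex lay in 2 deserts, 3 of 4 between Zfp608 and Gramd3 and 2 of 36 between Tenm3 and Aga.

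The desert between Tenm3 and Aga was the longest run, 36 bins over 3.6 Mb, and changed along its length. In its first 16 bins (chr8:49400001-51000000) the mean was 0.724, 0.726 and 0.700 in cortex, 0.708 and 0.692 in olfactory bulb and 0.802 and 0.789 in cerebellum, and olfactory bulb was below cortex in 15 of 16 bins. In the other 20 it was 0.765, 0.765 and 0.738, then 0.780 and 0.777, then 0.827 and 0.809, and olfactory bulb was below cortex in 0 of 20. The border was placed after the values were seen, so this is a description. The first stretch had a median of 552.5 CpG sites and 31.0% masked bases per bin and the second 469.5 and 45%. In the next longest deserts, the 35 bins between the protocadherin genes Pcdh20 and Pcdh9 averaged 0.757, 0.795 and 0.824 (cortex, olfactory bulb, cerebellum), and the 34 bins between Celf4 and Pik3c3 averaged 0.720, 0.75 and 0.807. In both, olfactory bulb was called lower than cortex in 0 bins by limma.

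**Figure D3:**
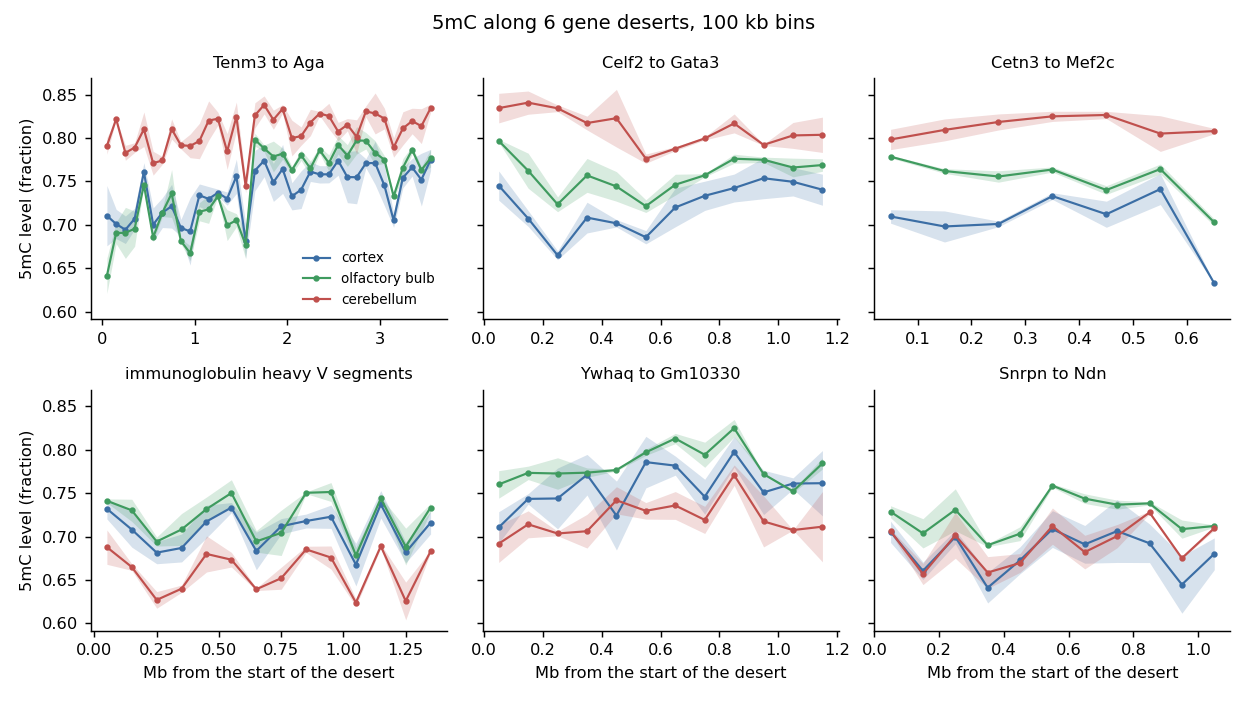
5mC level (fraction, y axis) of 100 kb bins along 6 deserts against distance from the start of the desert (Mb, x axis), as tissue means with bands of 1 SD over libraries. Cerebellum is on top in the 3 upper panels, lowest in the immunoglobulin heavy panel and in most bins of the Ywhaq to Gm10330 panel, and close to cortex in the Snrpn to Ndn panel. In the first 16 bins of the Tenm3 to Aga desert olfactory bulb lies below cortex in 15.

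All 21 desert bins called lower in cerebellum than in cortex by limma were on chromosome 12. They were 12 of the 14 immunoglobulin heavy V bins between Adam6a and Zfp386, 7 of the 12 bins between Ywhaq and Gm10330, and 2 of the 3 bins between 5730507C01Rik and Gm21863. The 14 immunoglobulin heavy bins, which hold the V segments that B cells join to make antibody heavy chains, averaged 0.717, 0.708 and 0.695 in cortex, 0.719 and 0.724 in olfactory bulb and 0.666 and 0.655 in cerebellum. Both cerebellum libraries were below all others, and the difference of the cerebellum mean was -0.0465 from cortex and -0.0609 from olfactory bulb, with all 14 bins called lower against olfactory bulb. The steepest of these falls was in chr12:114600001-114700000, with 0.736, 0.738 and 0.727 in cortex and 0.679 and 0.667 in cerebellum (log2 -0.42 ± 0.12, limma adjusted p = 0.000765, 0.0124 with its own spread). Of the 5 desert bins with the lowest 5mC, 4 were also in this locus. The lowest, chr12:115100001-115200000, was at 0.640 to 0.685 in cortex, 0.672 and 0.685 in olfactory bulb and 0.627 and 0.621 in cerebellum.

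In the kappa and T cell receptor alpha bins no fall from cortex to cerebellum was called. The 21 immunoglobulin kappa bins averaged 0.746 ± 0.0155 in cortex (n = 3), 0.791 ± 0.00614 in olfactory bulb (n = 2) and 0.764 ± 0.0155 in cerebellum (n = 2), with 0 bins lower and 4 higher in cerebellum than in cortex and 4 lower than in olfactory bulb. The 7 T cell receptor alpha bins averaged 0.75 ± 0.0152, 0.769 ± 0.00542 and 0.781 ± 0.0112, in the order of most deserts. V segments are families of related copies, and how many reads from such copies mapped uniquely cannot be seen in the binned values. Their part in the result was not tested. Without the 42 antigen receptor bins, 9 falls from cortex to cerebellum and 18 from olfactory bulb to cerebellum remained among the calls.

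The 12 bins between Ywhaq and Gm10330, also in the first 24 Mb of chromosome 12, averaged 0.771, 0.760 and 0.739 in cortex, 0.785 and 0.780 in olfactory bulb and 0.732 and 0.709 in cerebellum, so both cerebellum libraries were below all others. The largest fall from cortex was in chr12:22300001-22400000, with 0.785, 0.784 and 0.744 in cortex, 0.777 and 0.770 in olfactory bulb and 0.720 and 0.692 in cerebellum (log2 -0.49 ± 0.12, limma adjusted p = 7.63e-05, 0.0413 with its own spread). In chr12:22600001-22700000 cerebellum, at 0.747 and 0.724, was below olfactory bulb, at 0.817 and 0.809 (log2 -0.64 ± 0.13, adjusted p = 8.3e-06). The 3 bins between 5730507C01Rik and Gm21863 averaged 0.752 in cortex and 0.779 in olfactory bulb but 0.718 in cerebellum. Within them, chr12:19300001-19400000 had the largest replicate SD of all desert bins (pooled 0.039), with 0.754, 0.733 and 0.669 in cortex and 0.708 and 0.643 in cerebellum, and its fall from olfactory bulb had a log2 change of -0.55 and a limma adjusted p of 0.000199, or 0.210 with its own spread. Leaving out 1 library moved it from -0.33 (without the second cerebellum library, limma adjusted p = 0.109) to -0.76 (without the first), and on the log2 scale the fall in chr12:22600001-22700000 was the larger. These bins hold a median of 844 and 915 CpG sites, above the desert median, and mainly unnamed non-coding genes and pseudogenes. The next largest replicate SD was in chr1:193900001-194000000, between Camk1g and Plxna2 (pooled 0.0338), where the third cortex library, at 0.611, was below the others at 0.677 and 0.679. Without the second cerebellum library, 6 of the desert bins were called lower in cerebellum than in cortex, and without the first cortex library 11.

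**Figure D4:**
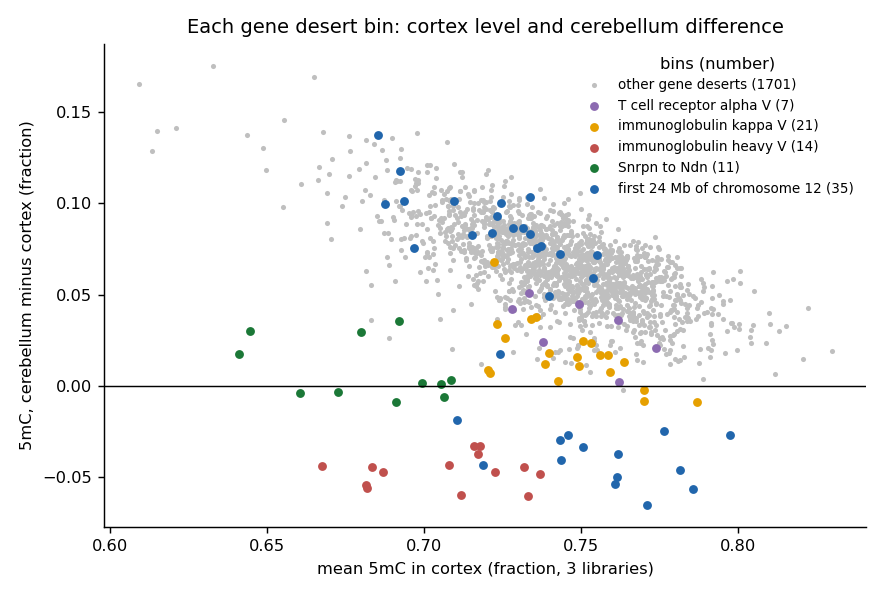
Each point is 1 of the 1789 desert bins, with its mean 5mC level in cortex (fraction, x axis) and its difference cerebellum minus cortex (fraction, y axis). Most bins lie above 0, while the 14 immunoglobulin heavy bins and part of the bins of the first 24 Mb of chromosome 12 lie below it, and the 11 Snrpn to Ndn bins lie closer to 0 than most bins at their cortex level.

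The lowest bin outside the immunoglobulin locus was in the imprinted region between Snrpn and Ndn on chromosome 7, genes expressed from the paternal copy. Its 11 bins averaged 0.693, 0.683 and 0.669 in cortex, 0.720 and 0.726 in olfactory bulb and 0.698 and 0.683 in cerebellum, so here cerebellum was near cortex (difference 0.00886, against 0.0640 over all deserts), and olfactory bulb was above cortex by 0.0411. Its lowest bin, chr7:61000001-61100000, was at 0.661, 0.631 and 0.631 in cortex, 0.691 and 0.689 in olfactory bulb and 0.671 and 0.646 in cerebellum. By limma 3 of the 11 bins were lower in cerebellum than in olfactory bulb and 1 was higher in cerebellum than in cortex. The files do not separate the parental copies. This desert carries 7 of the 16 miRNA hairpins that RefSeq places in desert bins, all of the Mir344 family, shown here as mature 3p forms (minus strand of chr7:61683127-61790543, GRCm38, RefSeq), with the seed, bases 2 to 8, in capitals.
mmu-miR-344d-3p: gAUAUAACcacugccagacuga
mmu-miR-344e-3p: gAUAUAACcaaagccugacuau
mmu-miR-344h-3p: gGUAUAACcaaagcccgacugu
mmu-miR-344b-3p: cAUUUAGCcaaagccugacugu
The forms mmu-miR-344d-3p, present in 3 copies, and mmu-miR-344e-3p share a seed, while mmu-miR-344h-3p (2 copies) and mmu-miR-344b-3p have seeds of their own.

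The bins with the highest 5mC lay on chromosomes 10, 13 and 9. The top bin, chr10:47600001-47700000, between Hace1 (a ubiquitin ligase) and Grik2 (a kainate glutamate receptor subunit), was at 0.832, 0.830 and 0.805 in cortex, 0.857 and 0.845 in olfactory bulb and 0.878 and 0.852 in cerebellum. It was followed by chr13:87300001-87400000, between Cox7c and Edil3 (0.811 to 0.844 in cortex, 0.856 and 0.842 in cerebellum), and chr9:12100001-12200000, between Cntn5 (a neuronal contactin) and Jrkl, with 0.815 to 0.830, 0.848 and 0.859, and 0.838 and 0.833. In the last, both cerebellum libraries were below both olfactory bulb libraries, but the difference of -0.0180 did not pass the test (limma adjusted p = 0.199). These 3 bins held 696 to 805 CpG sites and 49.9% to 59.8% masked bases, above the desert medians of 478 and 42.8%.

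5hmC in the deserts was low, and the order of the tissues was the reverse of that of 5mC. In the 67 autosomal 1 Mb bins made up wholly of desert bins it was 0.120, 0.131 and 0.115 in the cortex libraries, 0.0958, 0.105 and 0.102 in olfactory bulb and 0.0455, 0.0481 and 0.0487 in cerebellum, with no overlap. The means were 0.122 ± 0.00834, 0.101 ± 0.00474 and 0.0474 ± 0.00166 (SD, n = 3 each), and each pair had p = 0.1 in an exact permutation test, the smallest possible. The 2346 other autosomal 1 Mb bins averaged 0.170, 0.152 and 0.1, so deserts had 71.4%, 66.5% and 47.4% of their level. The gap was -0.0507 ± 0.00248 (lower in 9 of 9 libraries, exact sign-flip permutation p = 0.00391, the smallest possible). As a share of the sum of 5mC and 5hmC, from separate libraries, the share of 5hmC was 14% for cortex, 11.4% for olfactory bulb and 5.53% for cerebellum.

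The desert bin with the most 5hmC differed between tissues. In cortex it was chr18:27000001-28000000, between Celf4 and Pik3c3, with 0.161 ± 0.00777, and in cerebellum chr10:16000001-17000000, between Nmbr and Cited2, with 0.0815 ± 0.00308 (SD, n = 3 each). The bin at chr8:50000001-51000000, in the Tenm3 to Aga desert, had the most 5hmC of any desert bin in olfactory bulb (0.2, 0.197 and 0.191), above its cortex (0.128 to 0.142) and cerebellum values (0.0518 to 0.0551). The bin at chr12:22000001-23000000, in the Ywhaq to Gm10330 desert, had the least in all 3 tissues, with 0.0298 ± 0.00156, 0.0141 ± 0.00200 and 0.0143 ± 0.00291 (cortex, olfactory bulb, cerebellum). The kappa bin at chr6:69000001-70000000 came next, at 0.0866, 0.0342 and 0.0203. Across the 67 bins 5hmC and 5mC correlated at -0.572 in cortex and -0.767 in olfactory bulb but at 0.545 in cerebellum, where the other autosomal bins gave -0.574. Without the 2 bins of lowest 5hmC the values were -0.683, -0.842 and 0.424. The points of a tissue share libraries and neighbouring bins, and the correlations are descriptions.

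**Figure D5:**
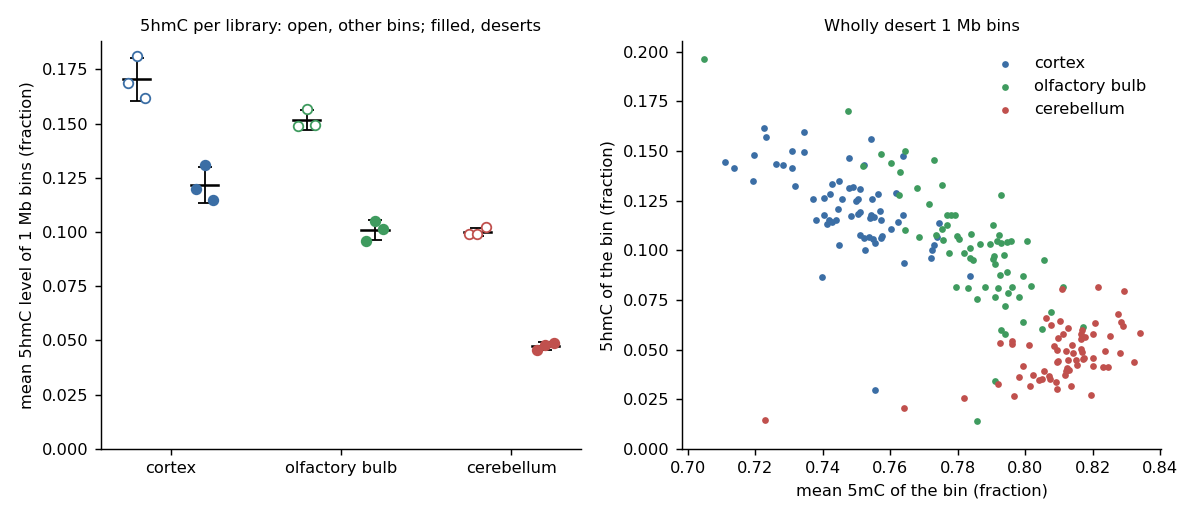
Left, mean 5hmC level (fraction, y axis) per TAB-seq library in the 67 wholly desert 1 Mb bins (filled) and the 2346 other autosomal bins (open), with means and SD (n = 3 per tissue). Right, 5hmC (y axis) against mean 5mC (x axis) of each of the 67 desert bins by tissue, falling in cortex and olfactory bulb and rising in cerebellum.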

How the data were processed

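The authors mapped paired oxBS-seq and TAB-seq reads uniquely to mm10 with Bismark, called sites with a binomial model (adjusted p at most 0.05, coverage at least 5) and deposited, per library, the fraction of 5mC per 100 kb bin and of 5hmC per 1 Mb bin. How sites were combined within a bin is not given in the sources used here, and the files hold no counts, so the depth behind each bin cannot be read from them.

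Samples were grouped by their labelled tissue. Library means were compared with exact permutation tests. Bins were compared with limma (version 3.58.1, run in R 4.3.3). A single fit took the 7 libraries and 25664 bins, with levels turned into log2(level/(1 - level)) and p-values adjusted by Benjamini-Hochberg. Other steps ran in Python 3.11.15 (pandas 2.3.3, numpy 2.4.6). Adjusted p-values with a bin's own spread came from the same limma fit without moderation. The limma step was tested on simulated data. Gene positions came from GENCODE M21, and sequences from the GRCm38 RefSeq assembly. Named bins were the 5 lowest and 3 highest in 5mC, the 3 largest rises and falls per pair of tissues (adjusted p under 0.05, no overlap of libraries), the 3 with the largest SD within tissues and the 3 longest runs. Members and gene lists were chosen with earlier results of these data known. Whether replicate numbers pair the libraries is unknown: deviations of same-numbered libraries correlated at -0.0906 to 0.0158. For libraries that share the number in their names, which differs from the labelled one, the values were -0.00129 to 0.0725. Such correlations cannot show whether libraries shared a mouse. Alternatives included other margins, scales, centring, each library left out and, added after the data were seen, bins without antigen receptor segments and each bin's own spread.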

Additional observations from a re-analysis of the deposited data

Results flagged for a closer look

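The 7 desert bins beside the odorant receptor gene Olfr1507, all with T cell receptor alpha V segments, differed from other deserts in opposite directions between tissues. They were higher by 0.00721 in cortex but differed by -0.00952 in olfactory bulb, 0.0167 apart, and by -0.0253 in cerebellum, 0.0325 apart. Every cortex library pointed one way and every library of the other tissue the opposite way. These differences between tissues were not tested.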

How the results depend on the processing

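Of 349 values for the comparisons under alternatives, 297 kept their direction and call or stayed within 1.5 times the count, and of 270 for named bins 256 did and 14 no longer passed the threshold. The cause of the changes below was not tested unless stated. The tissue difference of the desert gap, cerebellum minus olfactory bulb, became -0.00107 with a 1 Mb margin and -0.00413 with medians, and ran from -0.00366 to 0.00436 with 1 library left out. With all bins kept and levels held at least 0.001 away from 0 and 1, the 513 undetermined bins at 0 entered by construction: the gap was -0.0919, its tissue differences -0.00225 (olfactory bulb minus cortex), -0.00800 (cerebellum minus cortex) and -0.00575 (cerebellum minus olfactory bulb), and 551 rises and 0 falls were called from cortex to olfactory bulb. Bins over 2 Mb from a gene differed from those 500 kb to 1 Mb away by 0.00351 to 0.00597 with 1 library left out.

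Rises and falls are given in the order olfactory bulb against cortex, cerebellum against cortex and cerebellum against olfactory bulb. Centring gave 157 and 53, 674 and 117, and 374 and 143. A 250 kb margin (3446 bins) gave 1796 and 12, 3158 and 53, and 1411 and 75, and a 1 Mb margin (570 bins) 319 and 1, 528 and 5, and 227 and 9, with more or fewer bins by construction. Each bin's own spread gave 96 and 0 for the first and 233 and 8 for the last pair. Without antigen receptor bins the falls were 9 and 18 for the pairs with cerebellum, and on the fraction scale the last pair had 416 rises. With 1 library left out the rises ran from 276 to 971, 1371 to 1643 and 231 to 898 and the falls from 0 to 8, 6 to 24 and 14 to 44. A tissue left with 1 library was taken to vary like the others.

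The replicate block matched libraries by number, and whether they shared a mouse is not stated. With it, cerebellum exceeded cortex by 0.0560 ± 0.00802 and olfactory bulb did by 0.0283 ± 0.00530 (SD, 2 pairs). Pairing by library names gave 0.0669 ± 0.00733 and 0.0413 ± 0.0176. The block by labels gave 785 rises and 9 falls from cortex to olfactory bulb, 1599 and 24 from cortex to cerebellum and 938 and 47 from olfactory bulb to cerebellum. For the bins beside chemosensory receptors, leaving out antigen receptor bins left none. Bin depth is unknown, so its limit could not be given.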
